A study of Mus musculus with 2 samples.

Results

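The matrix metalloproteinase (Mmp), Adamts and Timp genes were examined for peaks of N6-methyladenosine (m6A), a methyl mark on adenosines of messenger RNA. Members were all protein-coding genes of the mm10 RefSeq annotation named Mmp with a number, Adamts with a number, or Timp1 to Timp4. This gave 46 of 21787 protein-coding genes, namely 23 Mmp, 19 Adamts and 4 Timp genes. A peak was assigned to a gene when its summit lay in the span of that gene. The data were 1 library of RNA captured with an m6A antibody and 1 input library taken without antibody, both from whole uterus of wild-type C57BL/6 mice. For the captured library the label gives equal parts of uterus from gestation day 4 and gestation day 8, whereas the input label names no day and no pooling. Every peak name begins with D8posIP-Neginput, which mentions day 8 alone. The sources used here do not give ages, the number of animals or any treatment.

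There was 1 library per group, so no test between groups could be made and each value describes this pair of libraries. Peaks were found in all 6 genes taken as marks of the uterus (Pgr, Esr1, Hoxa10, Hoxa11, Wnt4 and Nr2f2), in all 5 of smooth muscle, all 5 of epithelium and all 4 of endothelium. Of the macrophage and neutrophil genes 5 of 7 held a peak, with none listed in Cd68 and Mpo. Of the trophoblast genes 3 of 6 held one, with none in Prl3d1, Ascl2 and Elf5. Over all protein-coding genes 55.7% held a peak, so a count near that share says little of a cell type. In such bulk tissue, fewer cells of a type and less RNA per cell cannot be told apart, and no expression values were used here.

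Mmp proteins are zinc-dependent enzymes that cleave collagens and other proteins of the extracellular matrix, either after secretion or while anchored in the cell membrane. Adamts proteins are secreted relatives with thrombospondin repeats, which cleave proteoglycans, trim procollagens or act on other matrix proteins. Timp proteins bind the active site of Mmp enzymes and block it. In the uterus the balance of protease and inhibitor is known for its part in decidual remodelling, embryo invasion and tissue repair.

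Of the 46 genes, 32 (69.6%) held a peak, against 55.7% of all protein-coding genes. The families differed in this count. Adamts genes held a peak in 17 of 19 cases (89.5%), Timp genes in 3 of 4 and Mmp genes in 12 of 23 (52.2%). The 32 genes held 117 peaks in all, 80 in Adamts, 25 in Mmp and 12 in Timp genes. Adamts genes are long, with a median span of 114 kb against 12.7 kb for Mmp genes, and long genes held peaks more often. Per 100 kb of gene span there were 3.43 peaks in Adamts, 3.97 in Mmp and 10.4 in Timp genes, beside 3.30 over all protein-coding genes. Each rate divides the summed peaks by the summed spans of its set, so long genes weigh most in it. Sets of unlike gene length are therefore not matched by this rate. Counting only summits inside 1 gene, the rate was 3.04 in Adamts, 3.18 in Mmp and 4.32 in Timp genes, beside 2.88. Timp1, Timp3 and Timp4 lie wholly inside other genes, so under this rule only Timp2 could supply a peak. The spans of all 4 Timp genes stay in the rate, so its fall in Timp genes follows in part from the rule. Among genes of 10 to 30 kb, 7 of 14 Mmp and 3 of 3 Adamts genes held a peak, beside 60.1% of all protein-coding genes of that length. Among genes over 100 kb, 9 of 10 Adamts genes held one, beside 78.6%. Of genes of 30 to 100 kb, 1 of 2 Mmp, 4 of 5 Adamts and 2 of 2 Timp genes held one, beside 68.3%, and below 10 kb 3 of 6 Mmp, 1 of 1 Adamts and 1 of 2 Timp genes did, beside 36.9%. The part of gene length in the family counts was not tested further.

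Other rules for a peak left the count of members with one close to the first. With a −log10 q of at least 5 there were 31, beside 53.1% of all protein-coding genes, and with at least 4-fold enrichment 29, beside 51.5%. With an overlap of 1 base in place of the summit there were 32, beside 56.1%, and with at least 50% of the peak in the gene 31, beside 55.6%. When summits inside more than 1 annotated gene were left out, 28 remained, beside 51.1%, and Timp genes with a peak went from 3 to 1, since Timp1 and Timp3 lie inside other genes.

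Fold enrichment, as the authors deposited it, divides the immunoprecipitated (IP) fragments over a summit by the local background, with 1 fragment added to both. The 117 peaks ran from 1.91-fold to 20.5-fold with a median of 5.39-fold, beside 6.05-fold for all summits in protein-coding genes. Their summits were covered by 6 to 193 IP fragments with a median of 32. Values in parentheses after a fold are its exact 95% Poisson interval, taken from the IP fragment count with the background treated as known, so they cover counting error alone. The highest peak reached 10-fold in 8 of the 32 genes (25%), beside 31.4% of all peak-carrying protein-coding genes. Taking the top peak of each gene, the median was 8.68-fold in Adamts, 4.96-fold in Mmp and 10.1-fold in the 3 Timp genes, beside 8.04-fold over all peak-carrying protein-coding genes.

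**Figure D1:**
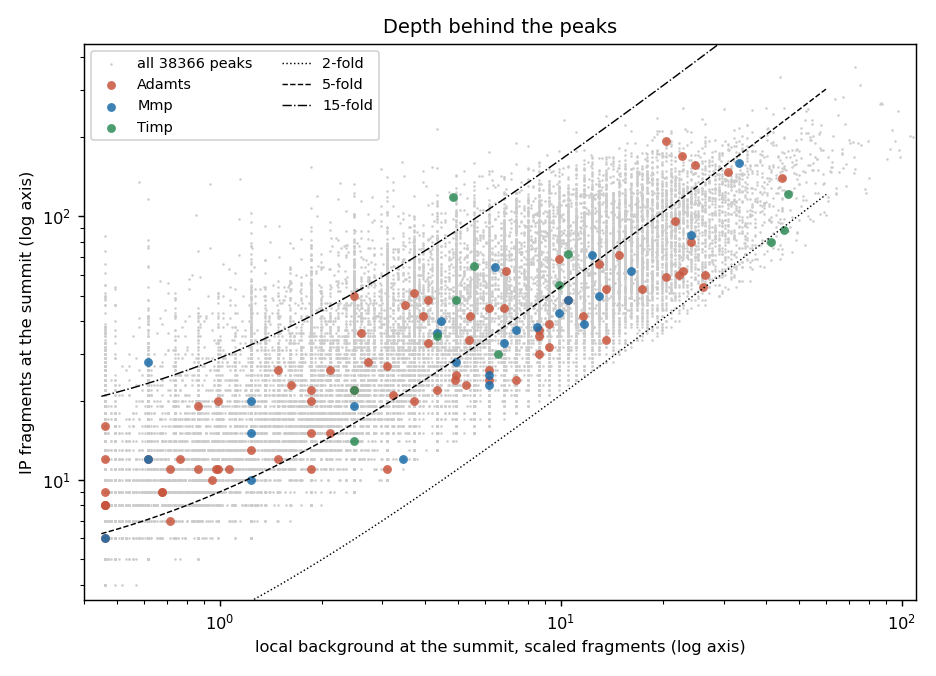
IP fragments at each summit against the local background in scaled fragments, both on log axes, for all 38366 peaks (grey) and for the peaks of Adamts, Mmp and Timp genes (coloured); the lines mark 2-fold, 5-fold and 15-fold enrichment. The Timp3 peak with 118 fragments lies above the 15-fold line, while its peaks with 121 and 89 fragments lie close to the 2-fold line.

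Peaks over the start of the transcript were found in Mmp15, Timp2, Mmp14 and Adamts1. The start regions of these 4 genes are shown because they are the part of the peaks for which sequence was at hand. The RefSeq promoter table (GRCm38.p6, the assembly of mm10) holds 35 start windows of 32 members, and in 4 windows a peak covered at least 1 of the first 30 transcribed bases. Over the 21263 start windows of all protein-coding genes in the table, a peak did so in 9.45%. Each sequence below runs 5′ to 3′ on the strand of its gene, with 20 bases before the start site in lower case and the first 30 transcribed bases in capitals.
Mmp15, chr8:95352276-95352325, plus strand: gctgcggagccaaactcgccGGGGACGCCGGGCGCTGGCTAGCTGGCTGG
Timp2, chr11:118355382-118355431, minus strand: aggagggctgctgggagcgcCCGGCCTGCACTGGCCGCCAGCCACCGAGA
Mmp14, chr14:54431578-54431627, plus strand: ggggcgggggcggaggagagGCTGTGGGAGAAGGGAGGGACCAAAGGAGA
Adamts1, chr16:85803084-85803133, minus strand: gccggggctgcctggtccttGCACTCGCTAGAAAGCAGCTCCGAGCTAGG
The peaks of Mmp15, Mmp14 and Adamts1 covered all 30 of these transcribed bases, and the Timp2 peak covered 16 of them. The 4 summits lay 113 bases (Mmp15), 206 bases (Timp2), 47 bases (Mmp14) and 942 bases (Adamts1) after the start site.

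The letters GGAC, a frequent core of methylated sites, were searched on the transcribed strand of the first 50 bases. They begin at base 3 in Mmp15 and at base 18 in Mmp14, and were not found in Timp2 and Adamts1. They were present in 2 of 4 member windows with a peak over the start and in 4 of 31 without, beside 20% of all windows of protein-coding genes. The content of G and C over the 300 bases of the window was 56% to 68.7% in the 4 windows with a peak. It was 37.7% to 80% in the other 31, so the groups overlapped, and the median over all protein-coding genes was 56.3%. A match of letters is a description of the window and not a mapped methylation site.

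Among the inhibitors, Timp3 held the most enriched peak of all 46 genes. Timp3 (NCBI Gene 21859, chromosome 10, 86300412 to 86349505) encodes an inhibitor that stays bound to the matrix and also blocks Adamts enzymes. Its first peak, at 86300481 to 86300841, had its summit 247 bases after the gene start and had 118 IP fragments against a background of 4.82, or 20.5-fold enrichment (17.0 to 24.5). Only 3.02% of peak-carrying protein-coding genes had a higher top peak. Among the other 31 members with a peak, the interval of the highest peak overlapped that of Timp3 in Mmp15, Adamts17 and Adamts8 and lay below it in the rest.

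The other peaks of Timp3 had about as many IP fragments and much lower folds. They lay 3680 and 1407 bases before the gene end, at 2.58-fold (2.14 to 3.08) and 1.95-fold (1.57 to 2.40), with 121 and 89 IP fragments. The background was 46.3 and 45.1 there, against 4.82 at the start. The fold therefore differed with the background, by which it is divided, while the numbers of captured fragments were similar at the start and the end of Timp3.

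Timp3 lies within the span of Syn3, a neuronal synapsin gene, and the peak list has no strand. All 3 summits lie in both genes. Syn3 had no peak outside the span of Timp3. The same arrangement holds for Timp1 inside Syn1 and for Timp4 inside Syn2, and neither synapsin gene had a peak outside the Timp gene it holds.

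Timp2, an inhibitor that also takes part in the activation of the gelatinase Mmp2, held the most peaks of the inhibitors. The 7 peaks of this gene (NCBI Gene 21858, chromosome 11, 118301061 to 118355411, minus strand) ran from 1.91-fold to 10.1-fold. The highest, at 118354963 to 118355397, is the peak over the transcript start shown above, at 10.1-fold (7.80 to 12.8), with 65 IP fragments against a background of 5.56. A group of 5 peaks lay between 21666 and 37875 bases after the start, far from both gene ends. They reached 5.15-fold, 6.63-fold, 6.35-fold, 8.25-fold and 6.76-fold, and the last 2 of these summits also lay in the gene Cep295nl, which had no peak elsewhere. The seventh peak, 2676 bases before the gene end, had 80 IP fragments against a background of 41.4 and stood at 1.91-fold (1.52 to 2.37).

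Timp1 held 2 peaks, both of lower fold than the Timp3 start peak, and Timp4 held none. Timp1, a secreted inhibitor (NCBI Gene 21857, chromosome X, 20870166 to 20874737), held peaks of 4.32-fold (2.49 to 7.06) and 4.11-fold (2.81 to 5.81) from 14 and 30 IP fragments. Its intervals lay below that of the Timp3 start peak. For Timp4, absence from the list does not separate a transcript that lacks the mark from one that is scarce or not made in this tissue.

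**Figure D2:**
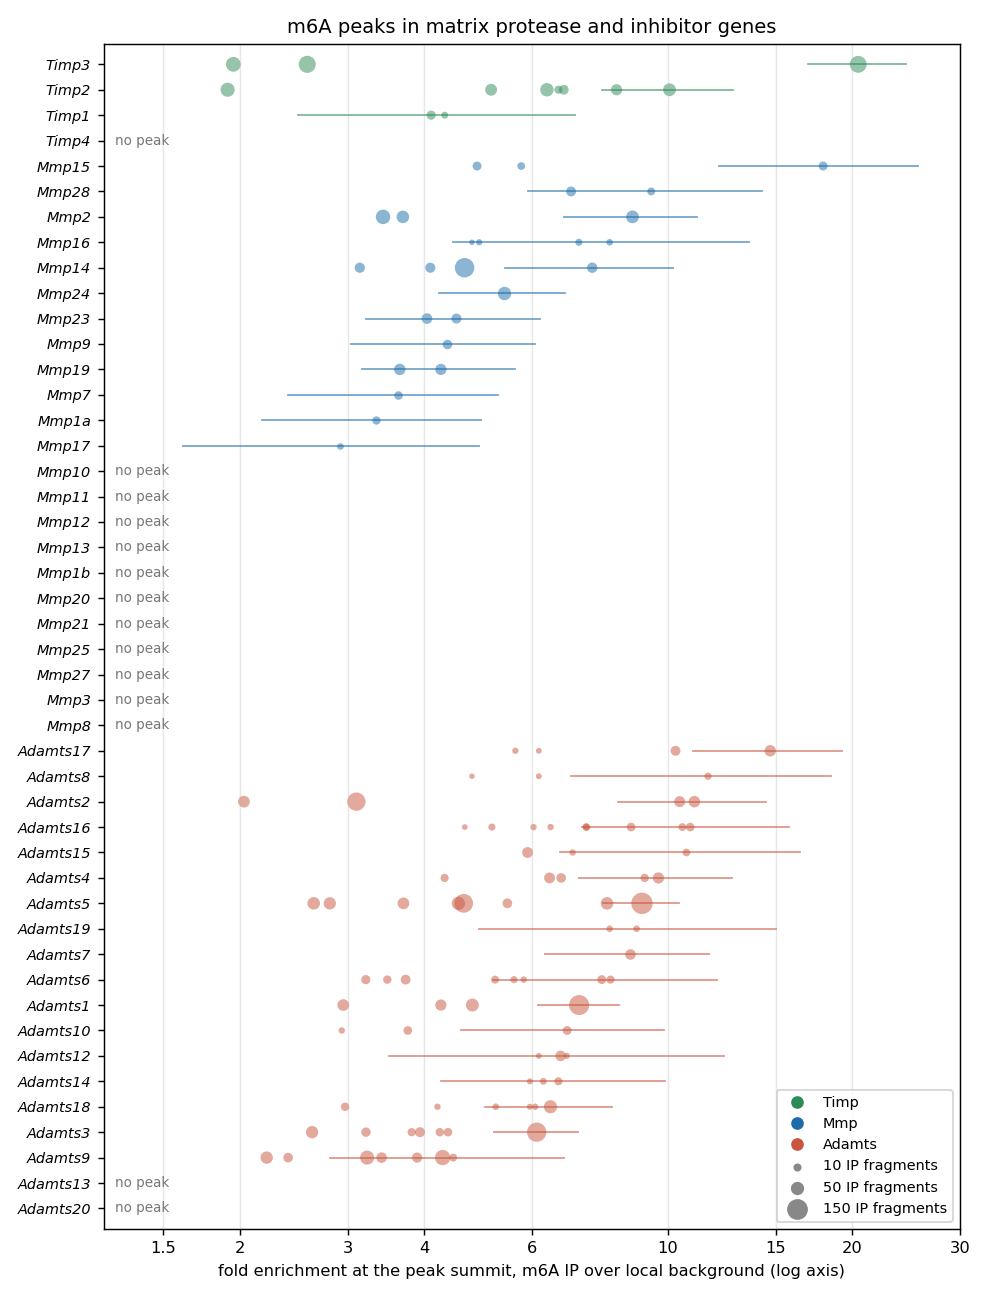
Fold enrichment of every peak (points, log axis) in each of the 46 genes, ordered by highest peak within Timp (green), Mmp (blue) and Adamts (red). Point area grows with IP fragments, and the line is the exact 95% Poisson interval of the highest peak. Timp3 at 20.5-fold and Mmp15 at 17.9-fold stand at the right, and 14 genes have no peak.

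The Mmp genes are given here by class, each of which holds few genes. For comparison, 55.7% of all protein-coding genes held a peak. That share was 36.9% for spans under 10 kb and 60.1% for spans of 10 to 30 kb. Of the 6 membrane-type enzymes, which act at the cell surface, 5 held a peak, all but Mmp25, and together they held 13 of the 25 Mmp peaks. Both gelatinases, Mmp2 and Mmp9, held one. Of the 4 collagenases, which cut fibrillar collagen, Mmp1a alone held a peak. Of the 4 stromelysins and matrilysin Mmp7 alone did, and the macrophage metalloelastase Mmp12 had none. Of the 6 other Mmp genes, Mmp19, Mmp23 and Mmp28 held peaks, while Mmp20, Mmp21 and Mmp27 did not. All 4 collagenases, 3 of the 4 stromelysins and matrilysin and Mmp12 lie in 1 gene cluster on chromosome 9, described below, so the counts by class and by cluster rest largely on the same genes. Median spans were 11.8 kb in the collagenases, 8.59 kb in the stromelysins and matrilysin and 24.5 kb in the membrane-type genes, and the part of gene length in these counts was not tested.

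Mmp15 had the most enriched Mmp peak. It encodes a membrane-type enzyme (NCBI Gene 17388, chromosome 8, 95352296 to 95374293). The peak over its transcript start, at 95352235 to 95352702, had 28 IP fragments against a background of 0.618, or 17.9-fold enrichment (12.1 to 25.6), so the fold rests on little input. A later peak, 2112 bases before the gene end, also had 28 IP fragments, with 4.88-fold enrichment (3.30 to 6.98) over a background of 4.94. The last, 194 bases before the end, stood at 5.76-fold (3.58 to 8.84). The intervals of the start peak and of both later peaks did not overlap. They leave out the error of the background, which matters most for the start peak with its background of 0.618.

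Mmp14 and Mmp2, a membrane-type enzyme and the gelatinase it activates, each had their highest peak close to one end of the gene. In Mmp14 (NCBI Gene 17387, chromosome 14, 54431598 to 54442456) the start peak at 54431485 to 54431801 reached 7.53-fold (5.43 to 10.2) from 40 IP fragments. Its broadest peak, 1335 bases before the gene end and 1906 bases wide, held 159 IP fragments over a background of 33.3 and stood at 4.66-fold (3.97 to 5.44). The intervals of these 2 peaks overlapped narrowly. Mmp14 peaks between them stood at 4.10-fold and 3.14-fold.

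In Mmp2 (NCBI Gene 17390, chromosome 8, 92827290 to 92853421) the highest peak lay 145 bases from one end of the span. With 64 IP fragments against a background of 6.42 it reached 8.76-fold (6.77 to 11.1). The peak 192 bases from the opposite end had 85 IP fragments against a background of 24.1 and stood at 3.43-fold (2.75 to 4.23), and its interval did not overlap the first. This summit also lay in the gene Gm45472. Another peak, 3353 bases from the first end, stood at 3.69-fold. The strand of Mmp2 was not used here, so the ends are not named as start or stop.

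Mmp28 and Mmp16 completed the 5 Mmp genes above 7-fold. Mmp28, or epilysin, held peaks 1694 and 347 bases before its gene end, at 9.40-fold (5.91 to 14.3) and 6.95-fold (4.92 to 9.55). The latter summit also lay in 1700020L24Rik. Mmp16, a membrane-type enzyme with a span of 264 kb, held 4 peaks of 4.79-fold to 8.04-fold that rested on 6 to 15 IP fragments. Its highest peak had an interval of 4.45 to 13.6. Mmp14 and Mmp16 had the most peaks of the Mmp genes, with 4 each.

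The remaining Mmp genes with a peak stood between 2.92-fold and 5.39-fold. Mmp24 reached 5.39-fold (4.23 to 6.78), 343 bases before its gene end, at a summit that also lay in BC029722. Mmp23 reached 4.52-fold, the gelatinase Mmp9 4.36-fold and Mmp19 4.26-fold, with both Mmp19 summits also in Tmem198b. Mmp17 was the lowest at 2.92-fold (1.62 to 4.93) from 12 IP fragments.

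Many Mmp genes without a peak are neighbours. On chromosome 9, 10 Mmp genes lie next to each other within 427 kb, from 7272514 to 7699585, with no other protein-coding gene between them. This group was set apart after its values were seen. In 2 of these 10 genes a peak was found, against 10 of the 13 Mmp genes elsewhere. Those without were Mmp13, Mmp12, Mmp1b, Mmp3, Mmp10, Mmp8, Mmp27 and Mmp20. Outside the cluster only Mmp11, Mmp21 and Mmp25 had none.

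The 2 peaks within the cluster genes were low and lay at the ends of their genes. Mmp1a, a collagenase, held 1 peak of 3.34-fold (2.17 to 4.95) from 23 IP fragments, 214 bases before its end. Mmp7, the matrilysin made by epithelial cells, held 1 of 3.62-fold (2.39 to 5.28) from 25 IP fragments, 148 bases before its end. Another peak of the region, at 7478113 to 7478312, lay between genes just after Mmp1a, at 4.08-fold from 6 IP fragments. Median gene span was 10.7 kb in the cluster and 17.0 kb in the other Mmp genes, and 60.1% of all protein-coding genes of 10 to 30 kb held a peak. The part of transcript abundance was not tested.

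**Figure D3:**
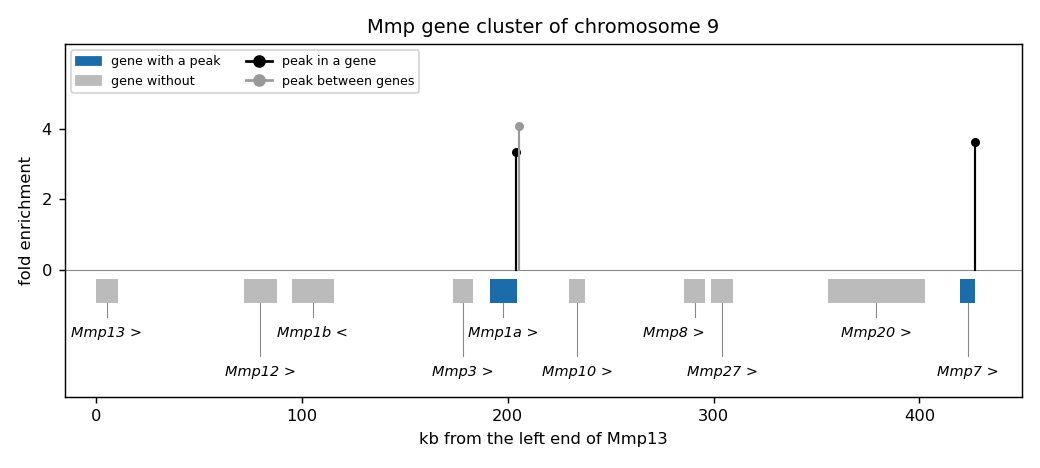
Map of the Mmp gene cluster of chromosome 9, in kb from the left end of Mmp13, with genes as bars (blue with a peak, grey without, arrows for strand) and peak summits as stems whose height is fold enrichment. The 2 peaks inside genes stand at the ends of Mmp1a (3.34-fold) and Mmp7 (3.62-fold).

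By class, Adamts genes held peaks as follows, beside 55.7% of all protein-coding genes and 78.6% of those over 100 kb, the length of 10 of the 19 Adamts genes. Of the 7 proteoglycan-cleaving enzymes, often called hyalectanases, 6 had one, all but Adamts20. All 3 procollagen N-proteinases, both enzymes that cleave the cartilage protein COMP, both fibrillin-associated enzymes and the pairs Adamts16 with Adamts18 and Adamts17 with Adamts19 also had them. Adamts13, the protease of von Willebrand factor that is made mainly in liver, had none.

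Among the hyalectanases, Adamts5 and Adamts1 had the deepest peaks of all 46 genes. Adamts1, which progesterone signalling is known to induce in the ovary, and Adamts5 are neighbours on chromosome 16, 55.0 kb apart. In Adamts5 (NCBI Gene 23794, 85858157 to 85901125), 8 peaks ran from 2.64-fold to 9.07-fold. Its highest, at 85898867 to 85900302, rested on 193 IP fragments and reached 9.07-fold (7.85 to 10.4) at a summit 1765 bases from one gene end. A peak 4825 bases from the opposite end, with 147 IP fragments, stood at 4.64-fold (3.93 to 5.45), below that interval.

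Adamts1 (NCBI Gene 11504, 85793827 to 85803113, minus strand) showed the opposite order to Mmp15 and Timp3. Its highest peak lay towards the end of the gene, 1723 bases before it, at 7.16-fold (6.13 to 8.32) from 169 IP fragments. The peak that covers its transcript start stood at 4.80-fold (3.73 to 6.08) from 66 IP fragments, and the intervals did not overlap. The 2 peaks between them stood at 4.26-fold and 2.95-fold.

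Adamts8 and Adamts15 are also neighbours, 20.1 kb apart on chromosome 9, and had higher folds on few fragments. Adamts8 (NCBI Gene 30806, 30942562 to 30963838) reached 11.6-fold (6.94 to 18.5), 769 bases from a gene end, from 16 IP fragments. Its 3 peaks had a background of 0.462 fragments, which is the level used across the genome where the input gave no local estimate above that level. Adamts15 (NCBI Gene 235130, 30899155 to 30922452) reached 10.7-fold (6.67 to 16.4), 915 bases from a gene end, from 19 IP fragments. Its peak with 45 IP fragments stood at 5.90-fold (4.34 to 7.85).

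Adamts4, an aggrecan-cleaving enzyme of 12.1 kb span, held 5 peaks, and Adamts9 held 7. The highest in Adamts4 reached 9.65-fold (7.17 to 12.7) from 48 IP fragments. In Adamts9 no peak exceeded 4.46-fold (2.81 to 6.78), and 88.8% of peak-carrying protein-coding genes had a higher top peak. The summit of that highest Adamts9 peak also lay in the gene 9530026P05Rik. Other Adamts9 summits also lay in A730049H05Rik and Gm15737. Adamts9 peaks nevertheless rested on 20 to 96 IP fragments, over a median background of 13.6.

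The procollagen N-proteinases, which remove the amino-terminal propeptide of fibrillar procollagens, all held peaks, with the highest folds in Adamts2. Adamts2 (NCBI Gene 216725, chromosome 11, 50602085 to 50807573) had its highest peaks 24252 and 159240 bases after the gene start. They reached 11.1-fold (8.28 to 14.5) and 10.5-fold (7.71 to 13.9) from 51 and 46 IP fragments. Closer to its end, peaks with 140 and 54 IP fragments stood at 3.10-fold (2.61 to 3.66) and 2.03-fold (1.54 to 2.64), over backgrounds of 44.5 and 26.1. As in Timp3, the peaks near the end of Adamts2 had the lower fold and the higher background.

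Adamts3 and Adamts14 followed. Adamts3 held 7 peaks, and its highest, 6.11-fold (5.19 to 7.14), was the broadest of all 46 genes at 2238 bases and held 156 IP fragments. It lay 3689 bases before the gene end, while the other 6 peaks stood at 2.63-fold to 4.38-fold. Adamts14 held 3 peaks of 5.95-fold to 6.63-fold from 9 to 22 IP fragments.

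Adamts17 had the most enriched peak among the Adamts genes. This gene (NCBI Gene 233332, chromosome 7, 66839699 to 67153171), whose product is linked to fibrillin microfibrils, had peaks of 14.7-fold (11.0 to 19.3) and 10.3-fold (7.29 to 14.1). They lay 2942 and 1953 bases before its end and rested on 50 and 36 IP fragments. Its other 2 peaks, more than 70 kb from either end, stood at 6.16-fold and 5.64-fold on 8 and 10 fragments. Adamts19, its closest relative, held 2 peaks of 8.89-fold (4.93 to 15.02) and 8.04-fold on 12 fragments each, both more than 80 kb from a gene end.

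Adamts16 had the most peaks of all 46 genes. Its 9 peaks (NCBI Gene 271127, chromosome 13, 70727798 to 70841845) ran from 4.66-fold to 10.9-fold, and 314 protein-coding genes held more. Of the 9 summits, 4 lay within 2 kb of each other, from 15702 to 17358 bases from one end of the span, at 8.71-fold, 7.36-fold, 10.9-fold and 5.16-fold. The highest had an interval of 7.25 to 15.8 from 26 IP fragments. All 9 peaks rested on 7 to 26 IP fragments over backgrounds of at most 2.10. Adamts18, its close relative, held 6 peaks, of which the highest stood at 6.43-fold (5.03 to 8.12) from 69 IP fragments, 1712 bases before the gene end.

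The other Adamts genes had highest peaks of 6.84-fold to 8.68-fold. Adamts7 held a single peak of 8.68-fold (6.31 to 11.7) that was 1215 bases wide. Adamts6, of the fibrillin-associated pair, held 8 peaks of up to 8.06-fold (5.18 to 12.0), and Adamts10 held 3 of up to 6.85-fold (4.60 to 9.85). Adamts12 held 3 peaks of 6.16-fold to 6.84-fold, all more than 20 kb from either end of its 284 kb span.

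The place of the peaks differed between the families. In Mmp genes 14 of 25 summits (56%) lay within 1000 bases of a gene end, whichever end, and 1 of 25 lay more than 10 kb from both. In Adamts genes these counts were 13 of 80 (16.2%) and 39 of 80 (48.8%), and in Timp genes 3 of 12 and 5 of 12. Over all summits in protein-coding genes the shares were 25.2% near an end and 33.1% beyond 10 kb. The 1000 bases at each end make up more of a short gene than of a long one. Among genes with a peak, median span was 18.8 kb in Mmp, 114 kb in Adamts and 49.1 kb in Timp genes, beside 25.1 kb over all protein-coding genes. The part of gene length in these shares was not tested. Of the 12 Mmp genes with a peak, 6 are longer than 20 kb and so have a place that far from both ends, and these hold 14 of the 25 Mmp peaks. Adamts peaks beyond 10 kb had a median fold of 5.47 from 24 IP fragments, close to the 6.26-fold and 24 fragments of those near an end. Exon positions were not used here, so summits within long genes may lie in introns or internal exons.

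Strand was known for 18 of the 32 genes with a peak. Of their 64 summits 4 lay within 250 bases after the gene start, in Mmp14, Mmp15, Timp2 and Timp3, beside 4.9% of such summits over all protein-coding genes. These 4 peaks were the highest of their genes, at 7.53-fold, 17.9-fold, 10.1-fold and 20.5-fold. Higher folds near the start were also seen over all protein-coding genes. There the median was 7.90-fold for summits within 250 bases after the start, beside 6.05-fold for all summits. No Adamts summit of known strand lay that close to a gene start, and the nearest was that of Adamts3 at 521 bases.

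**Figure D4:**
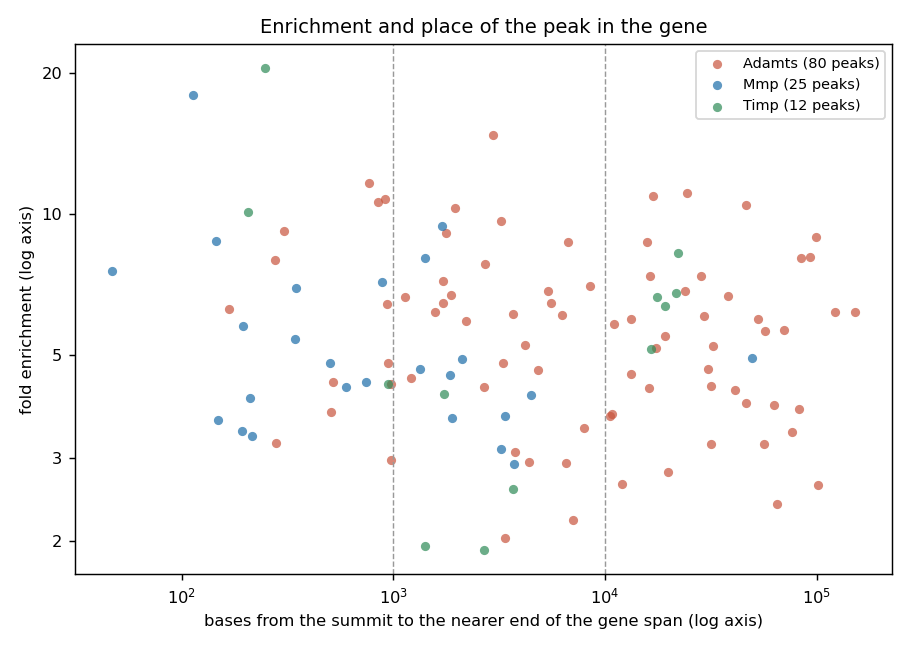
Fold enrichment of each peak against the bases from its summit to the nearer end of the gene span, both on log axes, for 80 Adamts, 25 Mmp and 12 Timp peaks; dashed lines mark 1000 bases and 10 kb. The 2 highest points, Timp3 and Mmp15, lie within 250 bases of an end, and 39 Adamts peaks lie to the right of the second line.

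Depth varied widely between these peaks. Of the 117 peaks, 26 rested on fewer than 15 IP fragments, and 8 stood at the genome-wide background (6.84%, beside 4.27% of summits in all protein-coding genes). At the other end, 8 peaks in Adamts1, Adamts2, Adamts3, Adamts5, Mmp14 and Timp3 held at least 100 IP fragments. Relative to the fold, the counting interval is narrower at these deep peaks than at the thin ones.

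Other genes of matrix turnover were listed with the members, and 37 of 48 held a peak (77.1%, beside the 55.7% of all protein-coding genes). Their median span was 43.9 kb against 17.2 kb over all protein-coding genes, and 68.3% of all genes of 30 to 100 kb held a peak. The median of their highest peaks was 7.89-fold. Peaks were found in 11 of 15 substrates, 7 of 8 activating proteases, 6 of 8 inhibitors or clearance receptors, 3 of 6 Adamts-like proteins and 9 of 10 other metalloproteases, and in Bsg, an inducer of Mmp genes. The highest was in Pcsk5, a furin-like convertase that activates proproteins, at 25.2-fold (19.8 to 31.7). Next came the sheddase Adam10 at 19.5-fold and the clearance receptor Lrp1, which takes up Timp3 and several proteases, at 15.5-fold. The fibrillins Fbn1 and Fbn2 reached 13.2-fold and 12.7-fold, and Adamtsl1 reached 13.0-fold. No peak was listed in Adamtsl2, Adamtsl3, Adamtsl4, Acan, Bcan, Ncan, Comp, Reck, Tfpi2, Plg and Tll2. The proteoglycan Vcan, a known substrate of the hyalectanases, held 7 peaks of up to 5.15-fold (4.36 to 6.05).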

How the data were processed

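Libraries of total RNA were prepared with a directional kit, per the labels' protocols. Per the submitters' processing notes, HISAT2 2.2.1 and MACS3 3.0.0a7 were used with build mm10. The sources used here give no settings, duplicate handling or filters. The authors deposited 1 list of 38366 peaks, called once on the m6A library against the input, with a fold enrichment (a ratio), a −log10 p-value and a −log10 q-value at each summit and a display score that was not used. Its lowest deposited −log10 q was 1.32. Coordinates are printed counted from 1.

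IP fragments (k) and background were recovered from the deposited fold, (k + 1)/(background + 1), and the Poisson −log10 p, which was matched within 0.001 at 100% of peaks. The recovery was tested on simulated data. Library sizes are unknown. PCR copies are not independent molecules.

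Gene spans came from RefSeq GRCm38.p6, without 365 genes outside the assembled chromosomes. All 46 members matched by symbol, and 32 had a strand in the promoter table. Genes described in full were all Timp genes, the 6 Mmp and 6 Adamts genes with the highest fold and the gene with the most peaks in each family, and other members by class. The members, gene lists and rules were chosen with earlier results of these data known. Alternatives were a threshold of 5 on −log10 q or of 4 on fold, overlap of 1 base or 50% of the peak, summits in 1 gene only, merged intervals and other peaks to stand for a gene. Transcript regions were planned and not run. The work used Python 3.11.15 with scipy 1.17.1, numpy 2.4.6, matplotlib 3.10.9 and pandas 2.3.3.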

Additional observations from a re-analysis of the deposited data

How the results depend on the processing

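Counts of genes with a peak stayed within 1.5 times the reported count in Mmp, Adamts and all members under each of the 5 alternatives. A −log10 q of at least 5 removed Mmp17, a fold of at least 4 removed Mmp17, Mmp1a and Mmp7, and 50% overlap removed Mmp24. With summits inside 1 gene only, Mmp19, Mmp24, Timp1 and Timp3 were lost, so that 1 Timp gene and 5 Timp peaks were left. With the median over the peaks of a gene in place of its highest, the family median was 5.40 in all members and 4.32 in Mmp genes. It was 6.26 in Adamts and 4.22 in Timp genes. This is another measure, which by definition cannot exceed the median highest fold. With a −log10 q of at least 5 the median highest fold was 8.04 in all members and 5.39 in Mmp genes. With summits inside 1 gene only these values were 8.05 and 6.02. The Adamts median was the same under these 2 settings. The Timp value with summits inside 1 gene only is that of Timp2 alone and says nothing of stability. Of 15 named genes, the peak with the highest −log10 q gave a fold outside the interval in Adamts15 (5.90) and Mmp14 (4.66). The median over peaks did so in 9, including Timp3 (2.58) and Mmp15 (5.76). No paired analysis was possible because each group held 1 library. Depth limits the 26 peaks with under 15 IP fragments, and the error of the background is in no interval.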
